A study of Mus musculus with 20 samples.

Results

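Maturation of the control mouse lens over the last days before birth was described from 10 of the 20 lens samples of the series. These were the 5 samples labelled E2F2-/- at P0 (newborn pups) and the 5 labelled E2F2-/- at E17.5 (embryos late in gestation), chosen by their titles and compared alone. The other 10 samples came from lenses labelled Cry-Cre E2F1-/- E2F2-/- E2F3f/f, 5 at each stage, and appear only where their values stand beside those of the controls. Both control groups lacked E2F2, carried no Cre transgene by their labels, and no wild-type lens was analysed here, so every change below is that of an E2F2 null lens. The name Cry-Cre points to a crystallin promoter, which would place the deletion of E2F3 in lens cells, whereas E2F1 and E2F2 are null in the whole animal. Per the labels, both lenses of 1 mouse made 1 sample. Litter, sex and strain were not given, and p-values therefore measure the spread between separate mice of unknown litters.

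The lens is an avascular tissue with a front layer of epithelial cells around a mass of elongated fibre cells, enclosed in a collagenous capsule. Epithelial cells divide in a zone near the equator, leave the cell cycle and turn into fibres, which fill with crystallins, join through channels and membrane scaffolds, and later destroy their nuclei and organelles. Before birth the lens is wrapped by a transient net of vessels, the tunica vasculosa lentis. E2F transcription factors, held in check by the retinoblastoma family, drive the genes of DNA replication and division.

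RNA was measured on Affymetrix arrays with 1 array per sample, and values are given as log2 signals as deposited. Array medians of the controls lay between 5.16 and 5.21. Precision is set by 5 arrays per stage. The labels name epithelial cells as the cell type, but whole lenses were dissected. All 10 fibre markers examined were above the array median in all 10 control arrays, as were 6 of 7 epithelial markers, and the seventh was above it in 9. The mean level of the fibre markers was 12.7 ± 0.0493 (SD, n = 5) at E17.5 and 12.9 ± 0.0248 at P0 (exact permutation test, adjusted p = 0.0298 over 15 array measures), and the stages did not overlap. The probe sets for 18S ribosomal RNA, which is not a messenger RNA, ranged from 8.72 to 9.39 in embryonic lenses and from 9.73 to 10.2 in newborn ones, a mean difference of 0.895 (adjusted p = 0.0298). This technical measure also separated the stages, so its part in any change between them cannot be told apart from stage. The mean levels of red-cell and liver plasma protein markers also separated the stages, while those of retina and macrophage markers varied between arrays without passing the test, and these values stand beside the results they touch.

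E2f2, the factor deleted in all these mice, read 6.25, 6.19, 6.29, 6.43 and 6.37 at E17.5 and 6.40, 6.17, 6.26, 6.204 and 6.24 at P0. The groups overlapped (-0.05 ± 0.06, SE; limma adjusted p = 0.521). The other, dimmer E2f2 probe set read 5.55 ± 0.18 at E17.5 and 5.15 ± 0.07 at P0 (SD, n = 5), a difference of -0.41. No source used here says whether these probe sets lie in the deleted part of the gene, and their level does not check the genotype. E2f1 did not pass the test either (0.14 ± 0.06, adjusted p = 0.117), except without P0 replicate 8 (0.19, limma adjusted p = 0.0217). E2f3 fell from 8.46 ± 0.12 to 8.01 ± 0.09 (SD, n = 5), a change of -0.45 ± 0.06 with no overlap between stages (adjusted p = 0.000454), whereas its dimmer probe set differed by -0.02.

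Of 11453 genes tested with limma, 4388 had a Benjamini-Hochberg adjusted p below 0.05 (38.3%). At P0, 1464 genes were higher (12.8%) and 2924 were lower (25.5%). The split moved with the scaling of the arrays: 1931 of 4299 calls were higher after quantile normalization, and 1195 of 4345 after centring each array on its median. Most changes were small. Among called genes, 25 rose and 81 fell by at least 1 log2 unit, and the median change over all genes tested was -0.04. With the 18S level of each array in the fit 496 genes were called, and the median change over all genes was -0.04 there too. Cdk1, for example, then changed by -1.72 ± 0.44 instead of -1.44 ± 0.18, with a larger SE. The 5 arrays of one stage lay wholly above the 5 of the other for 2920 genes (25.5%), and 912 of those were higher at P0 (7.96%).

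The largest rises were led by Crybb2, which encodes a major beta-crystallin (2.53 ± 0.11), Alb, the plasma protein albumin, which passed the level filter through the P0 arrays alone (2.46 ± 0.50), Clic5, a membrane and cytoskeleton protein (2.01 ± 0.20), Col4a3 and Col4a4, which encode collagen IV chains (1.90 ± 0.14 and 1.71 ± 0.20), and Ppl, the cytoskeletal linker periplakin, which is abundant in lens fibres (1.61 ± 0.10). Other large rises were those of the matrix protein gene Abi3bp (1.62), the linker histone H1f2 (1.37), the protocadherin Pcdh17 (1.35) and the cold-inducible RNA-binding protein Cirbp (1.19). The largest falls without overlap were Sfrp2, a secreted Wnt modulator (-2.22 ± 0.31), Atoh7, a retinal transcription factor (-2.09 ± 0.42), Cep55, which acts at the end of cytokinesis (-1.89 ± 0.30), Alas2, the red-cell enzyme of haem synthesis (-1.78 ± 0.34), and Sox11 (-1.64 ± 0.35).

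**Figure D1:**
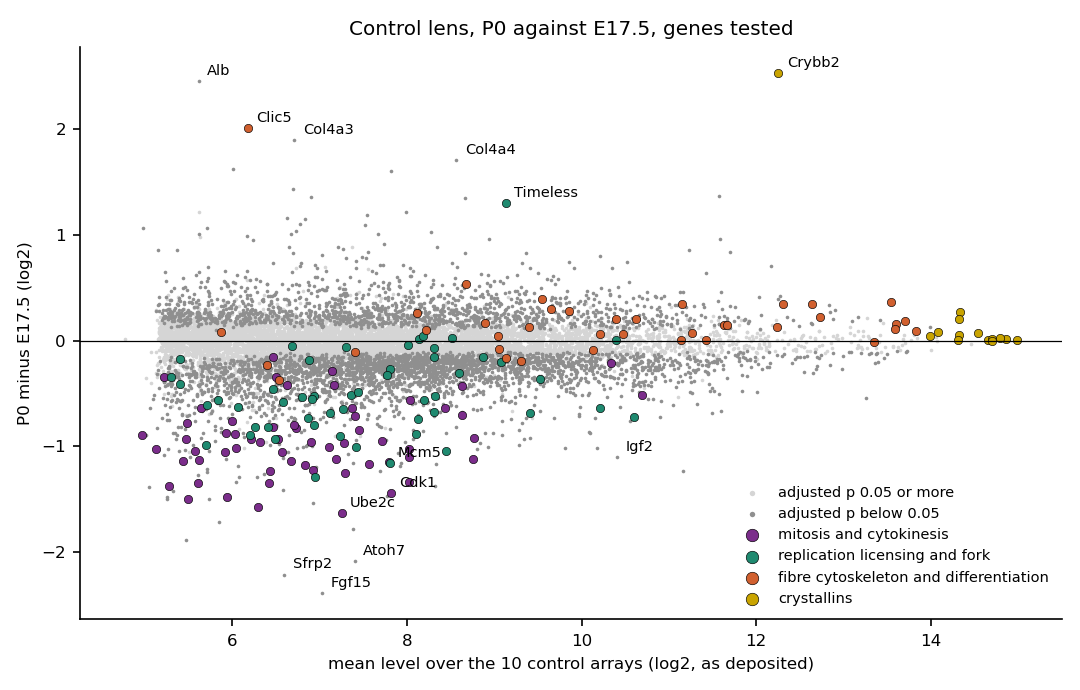
Change from E17.5 to P0 in control lenses (vertical axis, log2) against the mean level over the 10 control arrays (horizontal axis, log2), 1 point per gene tested. Genes of mitosis and replication lie mostly below 0 apart from Timeless, while crystallins sit at the top of the scale near no change apart from Crybb2.

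Genes of cell division fell together. In the list of mitosis and cytokinesis, 59 of 60 tested members were lower at P0 and none was higher, with a median change of -0.96 against -0.04 over all genes tested. The 59 include 4 that passed the level filter through the E17.5 arrays alone and 55 others. The exception, Pttg1, which guards sister chromatid separation, read -0.70 ± 0.46 with overlapping stages (adjusted p = 0.246), and passed the test without P0 replicate 7 (-1.11, limma adjusted p = 0.0271). Cdk1, the kinase that starts mitosis, read 8.25, 8.62, 8.60, 8.73 and 8.47 at E17.5 and 7.22, 7.09, 6.63, 6.79 and 7.74 at P0. All P0 arrays lay below all E17.5 arrays, and replicate 8 was the highest of the P0 arrays. The fall was 2.72-fold (-1.44 ± 0.18, adjusted p = 0.00021).

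Ube2c, which marks mitotic proteins for destruction, read 7.82, 8.06, 8.18, 8.27 and 8.001 at E17.5 and 6.37, 6.22, 6.34, 5.85 and 7.38 at P0. Again the stages did not overlap and replicate 8 was the highest at P0 (-1.63 ± 0.23, adjusted p = 0.000389). The kinases Bub1 and Ttk of the spindle checkpoint fell by 1.58 ± 0.19 and 1.13 ± 0.09. Kif2c, a motor that removes tubulin from microtubules, fell by 1.48 ± 0.22, Plk4, which starts centriole duplication, by 1.35 ± 0.13, and Anln, a scaffold of the cleavage furrow, changed by -1.499 ± 0.18. The other Kif2c probe sets changed by -0.70, -0.42 and 0.01, the last from a low level of 3.74. As a median over the 60 members, the P0 arrays 1, 5, 6, 7 and 8 lay -0.92, -1.11, -1.06, -1.24 and -0.53 from the E17.5 mean, and the E17.5 arrays between -0.17 and 0.20. Replicate 8 was thus the P0 array nearest the embryonic level for these genes, but still below every E17.5 array. With the 18S level in the fit 5 of the 60 were called lower, while the median change was -1.01.

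Promoters of the mitosis list are shown because the list moved nearly as 1 block and because its members are known to share short promoter elements. The cell cycle homology region (CHR, TTTGAA on either strand) and the CCAAT box (CCAAT on either strand) were searched in RefSeq windows of 250 bases before to 50 after each start (GRCm38.p6). A CHR was present in 37 of the 51 members with a window (72.5%), against 1300 of 9299 genes tested that have one (13.98%). A CCAAT box was present in 38 of the 51 (74.5%), against 43.2%. The box was not particular to this list or to genes that fell. It was present in 21 of 26 cholesterol and fatty acid synthesis members (80.8%) and in 12 of 16 circadian clock members (75%). Of ribosome biogenesis members 17 of 44 held it (38.6%). A match describes these letters and is no evidence of binding. In the windows of Cdk1 (chr10:69352888-69353112, minus strand), Ube2c (chr2:164769729-164769953, plus strand) and Ttk (chr9:83834489-83834713, plus strand), given 5′ to 3′ from 200 bases before to 25 after the start, capitals mark CHR and CCAAT matches.
Cdk1: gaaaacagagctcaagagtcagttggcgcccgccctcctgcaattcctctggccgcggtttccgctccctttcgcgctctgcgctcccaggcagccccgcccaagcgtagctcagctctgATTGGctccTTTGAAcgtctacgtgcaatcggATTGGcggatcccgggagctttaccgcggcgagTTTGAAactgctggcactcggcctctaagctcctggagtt
Ube2c: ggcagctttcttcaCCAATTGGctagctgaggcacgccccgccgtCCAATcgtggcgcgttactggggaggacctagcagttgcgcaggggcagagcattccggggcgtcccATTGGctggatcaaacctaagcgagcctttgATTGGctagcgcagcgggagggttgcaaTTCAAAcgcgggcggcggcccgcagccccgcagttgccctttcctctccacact
Ttk: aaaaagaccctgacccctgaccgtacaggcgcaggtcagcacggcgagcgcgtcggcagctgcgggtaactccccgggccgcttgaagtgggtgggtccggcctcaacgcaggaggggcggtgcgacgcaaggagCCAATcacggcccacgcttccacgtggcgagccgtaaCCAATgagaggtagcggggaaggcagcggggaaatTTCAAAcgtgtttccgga
Cdk1 held 2 CHR matches, at -71 and -15 from the start, each following a CCAAT box, and Ube2c held 1, at -29, after 5 CCAAT matches.

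Replication genes followed the same direction with 1 clear exception. Of 52 tested members of the list of replication licensing and the fork, 40 were lower and 1 was higher, with a median of -0.54. Mcm5, a subunit of the replicative helicase, read 8.17, 8.47, 8.35, 8.57 and 8.35 at E17.5 and 7.35, 7.44, 7.13, 7.10 and 7.09 at P0. The stages lay far apart relative to their spread (-1.16 ± 0.09, adjusted p = 3.29e-05), and P0 replicate 8 was here the lowest of its group. Mcm6 fell by 1.05 ± 0.13, Uhrf1, which carries DNA methylation through replication, by 1.29 ± 0.10, and Gins1 and Gins2 of the helicase complex by 0.89 ± 0.08 and 0.65 ± 0.05. With the 18S level in the fit 14 of the 52 were called lower, and the median change remained -0.54.

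Timeless, which protects the replication fork and has been linked to the clock, went the other way. It read 8.62, 8.79, 8.28, 8.36 and 8.35 at E17.5 and 9.40, 9.24, 9.99, 9.87 and 10.4 at P0. Every P0 array exceeded every E17.5 array, a rise of 2.46-fold (1.30 ± 0.20, adjusted p = 0.000633). Its second probe set moved likewise, by 0.88 from 7.25 to 8.12.

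Mcm5 and Mcm6 are shown because replication genes are textbook E2F targets and E2F2 was absent at both stages. An E2F motif (TTTCCCGC, TTTGGCGC, TTTGCCGC or TTTCGCGC on either strand) was present in 18 of 43 replication members with a window (41.9%), against 439 of 9299 genes tested (4.72%), and in 3 of 51 mitosis members. A CHR was present in 8 of the 43 replication members (18.6%). Capitals mark E2F matches, some of which overlap one another, in the windows of Mcm5 (chr8:75109309-75109533, plus strand) and Mcm6 (chr1:128359681-128359905, minus strand).
Mcm5: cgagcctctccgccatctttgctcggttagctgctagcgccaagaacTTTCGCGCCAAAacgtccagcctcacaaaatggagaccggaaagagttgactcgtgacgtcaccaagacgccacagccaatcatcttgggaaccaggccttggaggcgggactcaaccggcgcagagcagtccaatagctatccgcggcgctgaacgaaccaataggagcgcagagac
Mcm6: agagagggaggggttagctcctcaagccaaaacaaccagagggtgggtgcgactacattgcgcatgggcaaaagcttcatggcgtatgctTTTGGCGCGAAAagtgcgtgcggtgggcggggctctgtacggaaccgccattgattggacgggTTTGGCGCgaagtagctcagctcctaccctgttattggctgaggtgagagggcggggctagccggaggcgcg
Over all genes lower at P0 that have a window, 151 of 2409 held an E2F motif (6.27%), and over those higher, 43 of 1161 (3.70%).

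In nucleotide synthesis 20 of 26 tested members were lower and 2 higher (median -0.42), where 25.5% of all genes tested were lower. Rrm2, the S-phase subunit of ribonucleotide reductase, read 8.15, 8.51, 8.57, 8.68 and 8.61 at E17.5 and 7.08, 7.29, 6.72, 6.89 and 7.19 at P0, without overlap (-1.47 ± 0.12, adjusted p = 3.71e-05). Its partner Rrm1 fell by 0.71 ± 0.07, the salvage kinase Dck by 0.66 ± 0.06 and the mitochondrial one-carbon enzyme Shmt2 by 0.68 ± 0.07. The 2 that rose were Paics of purine synthesis (0.21 ± 0.04) and Rrm2b, the subunit used outside S phase (0.21 ± 0.04).

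Cyclins and kinases of G1 and S phase went both ways, with 11 of 22 lower and 5 higher. Over all genes tested 25.5% were lower and 12.8% higher. Skp2, which targets the inhibitor p27 for destruction, fell by 0.997 ± 0.09, the cyclins Ccne2 and Ccnd2 by 0.82 ± 0.08 and 0.73 ± 0.08, while the Myc antagonists Mxd4 and Mxd1 rose by 0.47 ± 0.05 and 0.50 ± 0.08. Of the E2F, pocket protein and CDK inhibitor list, 10 of 22 were lower and 1 higher. The repressive factors E2f7 and E2f8, which are themselves made in S phase, fell by 1.25 ± 0.16 and 0.87 ± 0.12, the inhibitor Cdkn2d by 0.42 ± 0.06, and the pocket protein Rbl2 rose by 0.25 ± 0.06. The CDK inhibitors Cdkn1b and Cdkn1c, which bring about cell cycle exit in lens fibres, read -0.06 ± 0.09 and -0.10 ± 0.06 and did not pass the test. In DNA damage response and repair 22 of 40 were lower and 1 higher. Chek1, the replication checkpoint kinase, fell by 1.10 ± 0.07 (adjusted p = 8.21e-06), the nuclease Exo1 by 1.38 ± 0.16 and the histone H2ax by 0.90 ± 0.10. Chek1 and Exo1, like Ccne2 and E2f8 above, were above the array median in all E17.5 arrays and in no P0 array, so they could be tested only because they were high at E17.5. Of all genes tested 29 passed the filter in this way and 10 through the P0 arrays alone, and all of these were called. The mitosis list held 4 of them and the repair list 3. Ttk, Kif2c, Anln and Cep55 were above the array median in all E17.5 arrays and in 1 P0 array. Clic5 was above it in 1 E17.5 array and in all P0 arrays. For these too, the arrays of the higher stage alone met the filter of 5 arrays. Fignl1, a recombination factor outside these lists, fell by 1.54 ± 0.14.

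**Figure D2:**
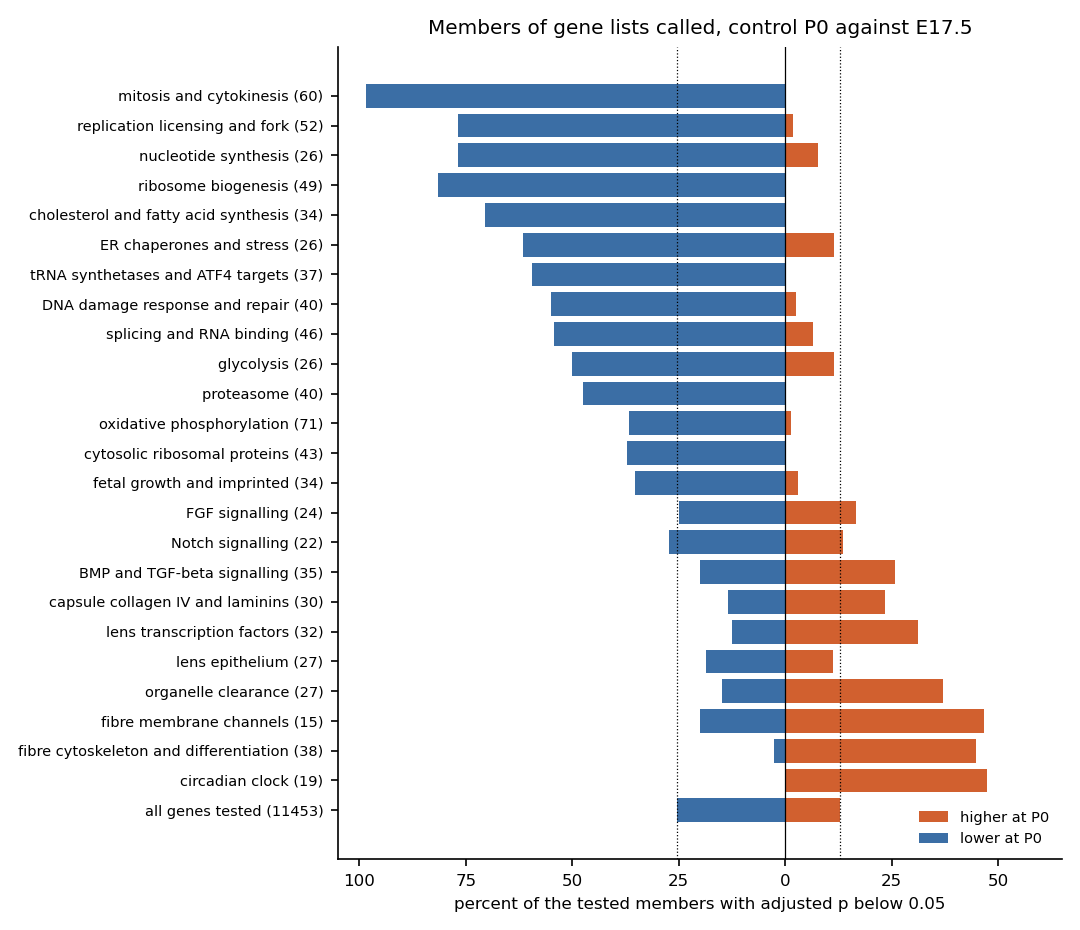
Percent of the tested members of each gene list (number tested in brackets) that were higher (right) or lower (left) at P0 with adjusted p below 0.05. Dotted lines mark the shares over all genes tested, 12.8% higher and 25.5% lower. Division and biosynthesis lists extend past the left line, oxidative phosphorylation and cytosolic ribosomal proteins less far than the others. Fibre, organelle and clock lists extend past the right line, and so does BMP and TGF-beta signalling.

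In lists of growth and biosynthesis more genes were lower than higher, with smaller changes, where 25.5% of all genes tested were lower. In ribosome biogenesis 40 of 49 tested members were lower and none higher (median -0.31). Ddx18, an RNA helicase of the nucleolus, fell by 0.56 ± 0.05 and Gar1, which acts in RNA modification, by 0.64 ± 0.07. With the 18S level in the fit 7 of the 49 were called lower, while the median change was -0.35. Cytosolic ribosomal proteins themselves moved less, with 16 of 43 lower, none higher and a median of -0.07. Of splicing and RNA-binding genes 25 of 46 were lower and 3 higher, among them Hnrnpd (-0.59 ± 0.06) and Elavl1 (-0.37 ± 0.04). The proteasome had 19 of 40 lower and none higher (median -0.16), and oxidative phosphorylation 26 of 71 lower and 1 higher (median -0.07), with Cyc1 of complex III at -0.39 ± 0.04. The medians of ribosomal proteins and oxidative phosphorylation lay near the -0.04 over all genes tested. With the macrophage marker level of each array in the fit 4 and 15 of their members were called lower.

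The list of tRNA synthetases and ATF4 targets, which charge transfer RNAs and respond to amino acid supply, had 22 of 37 lower and none higher (median -0.30). Aars, the alanyl-tRNA synthetase, had one of the smallest adjusted p of all genes. It read 9.77, 9.61, 9.78, 9.68 and 9.69 at E17.5 and 8.83, 8.88, 8.88, 8.89 and 8.80 at P0. The arrays within a stage lay close together and the stages far apart (-0.85 ± 0.04, adjusted p = 2.88e-06). Iars and Tars, for isoleucine and threonine, fell by 0.47 ± 0.04 and 0.87 ± 0.10. Bcat1, which starts the breakdown of branched amino acids, fell by 1.42 ± 0.12, although 1 of its other probe sets read -0.14.

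The promoters of Aars and Iars are shown for the amino acid response element, the ATF4 site TGATGNAA on either strand. It was present in 9 of 28 members of this list with a window (32.1%), against 2.55% of genes tested. Capitals mark it in the windows of Aars (chr8:111033642-111033866, plus strand) and Iars (chr13:49681930-49682154, plus strand).
Aars: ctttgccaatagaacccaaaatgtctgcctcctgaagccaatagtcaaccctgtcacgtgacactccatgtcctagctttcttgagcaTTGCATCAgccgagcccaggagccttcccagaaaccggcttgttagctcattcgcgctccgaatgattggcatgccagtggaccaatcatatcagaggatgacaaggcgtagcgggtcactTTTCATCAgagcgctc
Iars: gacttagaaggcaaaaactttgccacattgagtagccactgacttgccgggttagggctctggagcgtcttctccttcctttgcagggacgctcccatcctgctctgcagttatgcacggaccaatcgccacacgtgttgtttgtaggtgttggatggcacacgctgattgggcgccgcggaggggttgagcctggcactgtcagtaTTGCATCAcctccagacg
Both genes held the same letters, TTGCATCA, which lie at -112 in Aars and at 7 after the start in Iars, and Aars held a second match, TTTCATCA, at 9.

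Genes of secretory and lipid pathways were also lower more often than the 25.5% over all genes tested. In cholesterol and fatty acid synthesis 24 of 34 were lower and none higher (median -0.35). Hmgcs1, which makes the precursor of mevalonate, read 11.98, 11.73, 11.81, 11.96 and 11.72 at E17.5 and 11.13, 11.26, 10.98, 11.27 and 11.14 at P0. The stages did not overlap (-0.68 ± 0.07, adjusted p = 9.18e-05). Fdps, a later enzyme of the pathway, fell by 0.74 ± 0.08 and Srebf2, the transcription factor that drives it, by 0.36 ± 0.04. In the fit with the 18S level 5 of the 34 were called lower, while the median change was -0.55. Of ER chaperones and stress genes 16 of 26 were lower and 3 higher. The ER chaperone Hspa5 fell by 0.47 ± 0.06 and the ER proteins Manf and Creld2 by 0.68 ± 0.05 and 0.65 ± 0.07, while Ppp1r15a, the phosphatase subunit that restarts translation after stress, rose by 0.89 ± 0.12. The other Hspa5 probe sets changed by -0.61 and -0.09.

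Transcripts of glucose use changed member by member. In glycolysis 13 of 26 were lower and 3 higher, where 25.5% of all genes tested were lower and 12.8% higher. Ldha, which makes lactate, read 11.37, 11.81, 11.95, 12.01 and 11.77 at E17.5 and 10.41, 10.59, 10.36, 10.42 and 10.97 at P0, without overlap and with replicate 8 highest at P0 (-1.23 ± 0.14, adjusted p = 0.000128). Slc16a3, an exporter of lactate, fell by 1.12 ± 0.13, and the glucose carrier Slc2a1 by 0.34 ± 0.08 with overlapping stages. Aldoc, an aldolase, rose by 0.86 ± 0.07. Among hypoxia-response genes 9 of 24 were lower and 5 higher, the latter led by Ndrg1 (0.84 ± 0.06) and Hmox1, which breaks down haem (0.96 ± 0.10). In glutathione and antioxidant genes 16 of 42 were lower and 3 higher. Nfe2l2, the transcription factor NRF2 that drives many of them, read 8.42, 8.49, 8.44, 8.45 and 8.47 at E17.5 and 7.56, 7.46, 7.40, 7.62 and 7.40 at P0. The stages were far apart (-0.96 ± 0.05, adjusted p = 2.88e-06). The other, dimmer Nfe2l2 probe set rose by 0.45, from 4.05 to 4.50. Txn1 and Txnrd1 of the thioredoxin system fell by 0.60 ± 0.05 and 0.58 ± 0.06, with 1 low probe set of Txn1 at 0.16.

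Genes of the lens fibre were higher more often than over all genes. Of 38 tested genes of the fibre cytoskeleton and differentiation 17 were higher and 1 lower (median 0.13), where 12.8% of all genes tested were higher. Clic5 read 5.202, 4.70, 5.76, 5.12 and 5.06 at E17.5 and 6.91, 6.81, 7.38, 7.197 and 7.62 at P0. All P0 arrays lay more than 1 log2 unit above all E17.5 arrays (2.01 ± 0.20, adjusted p = 7e-05), and its other 3 probe sets rose by 0.66 to 1.99. Ctnna2, an adhesion catenin, rose by 0.53 ± 0.04, the lens galectin Grifin by 0.35 ± 0.05 and the lipid carrier Fabp5 by 0.37 ± 0.05, and Tmod3, a capper of actin filaments, fell by 0.38 ± 0.07. In the fit with the 18S level 2 of the 38 were called higher, while the median change was 0.18, and with all 20 arrays in the fit 6 were called. Of 15 fibre membrane channel and transport genes 7 were higher and 3 lower. Mip, the water channel aquaporin 0, Lim2 and the connexin Gja3 rose by 0.20 ± 0.04, 0.13 ± 0.03 and 0.17 ± 0.04. With the macrophage marker level of each array in the fit 1 of the 15 was called higher, as with the 18S level. Mip, Lim2 and Gja3 lost the call in both fits (limma adjusted p = 0.0505, 0.0798 and 0.0739 with the macrophage level).

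Crystallins were read near the highest values in the table, which limits any rise that could be seen. Of 8 alpha- and beta-crystallins 2 were higher, and of 6 gamma-crystallins 1, where 12.8% of all genes tested were higher. Crybb2 read 11.15, 10.61, 10.87, 11.03 and 11.28 at E17.5 and 13.47, 13.50, 13.40, 13.50 and 13.74 at P0. Of these 14 genes it was the one with the lowest level at E17.5, and it rose 5.79-fold with no overlap (2.53 ± 0.11, adjusted p = 1.67e-06). Cryab, a small heat shock protein, rose by 0.27 ± 0.04 and Crygs by 0.20 ± 0.04. Cryaa stood at 14.86 and 14.88 and Crybb1 at 14.989 and 14.999 at the 2 stages, and they did not pass the test (0.02 ± 0.03 and 0.01 ± 0.03), while Crygf and Crygd read 0.08 ± 0.04 and 0.07 ± 0.03 without overlap between stages but also without a call. The MARE core TGCTGA, bound by Maf factors, on either strand, was present in the windows of 6 of 7 alpha- and beta-crystallins, against 18.1% of genes tested, and Crybb2 was the 1 without it.

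Genes of organelle clearance, the step that makes the fibre core transparent, were mixed, with 10 of 27 higher and 4 lower. Over all genes tested 12.8% were higher and 25.5% lower. With the 18S level in the fit none of the 27 was called, while the median change was 0.05. Dnase2b, which degrades fibre nuclei, rose by 0.43 ± 0.10 with overlapping stages, the mitophagy receptor Bnip3 by 0.41 ± 0.06 and the autophagy protein Wipi1 by 0.32 ± 0.06. The nuclear lamins Lmnb1 and Lmnb2 fell by 0.61 ± 0.08 and 0.59 ± 0.09.

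Lens transcription factors split by member, with 10 of 32 higher and 4 lower, where 12.8% of all genes tested were higher and 25.5% lower. With the 18S level in the fit 3 of the 32 were called higher and none lower. Prox1, needed for fibre elongation, read 9.43, 9.28, 9.44, 9.35 and 9.30 at E17.5 and 9.91, 9.86, 10.04, 9.91 and 9.97 at P0. No array of one stage reached the other (0.58 ± 0.05, adjusted p = 4.1e-05). Nfix read 5.86, 6.18, 6.48, 6.61 and 6.03 at E17.5 and 7.55, 7.36, 7.11, 7.17 and 7.45 at P0, also apart (1.10 ± 0.14, adjusted p = 0.000238). Maf, which drives crystallin genes, rose by 0.42 ± 0.05, but its next brightest probe set changed by 0.08 only and was not called. Sox2 and Tfap2a rose by 0.53 ± 0.11 and 0.61 ± 0.14 with overlapping stages. The other Tfap2a probe sets changed by 0.26 and 0.13. Sox11 and Mab21l2 fell by 1.64 ± 0.35 and 1.19 ± 0.26, and the epithelial factors Pax6 and Foxe3 read -0.07 ± 0.10 and -0.29 ± 0.15 without a call, although Foxe3 passed without E17.5 replicate 10 (-0.40, limma adjusted p = 0.0307).

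Of 27 lens epithelium genes 3 were higher and 5 lower, where 12.8% of all genes tested were higher and 25.5% lower. Neither count exceeded the share over all genes. Sfrp2 read 7.84, 8.25, 7.50, 7.98 and 6.95 at E17.5 and 6.06, 5.04, 6.25, 4.87 and 5.22 at P0. The spread within each stage was wide, but the lowest E17.5 array still exceeded the highest P0 array (-2.22 ± 0.31, adjusted p = 0.000371). Wls, which carries Wnt proteins to the cell surface, rose by 0.54 ± 0.09.

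**Figure D3:**
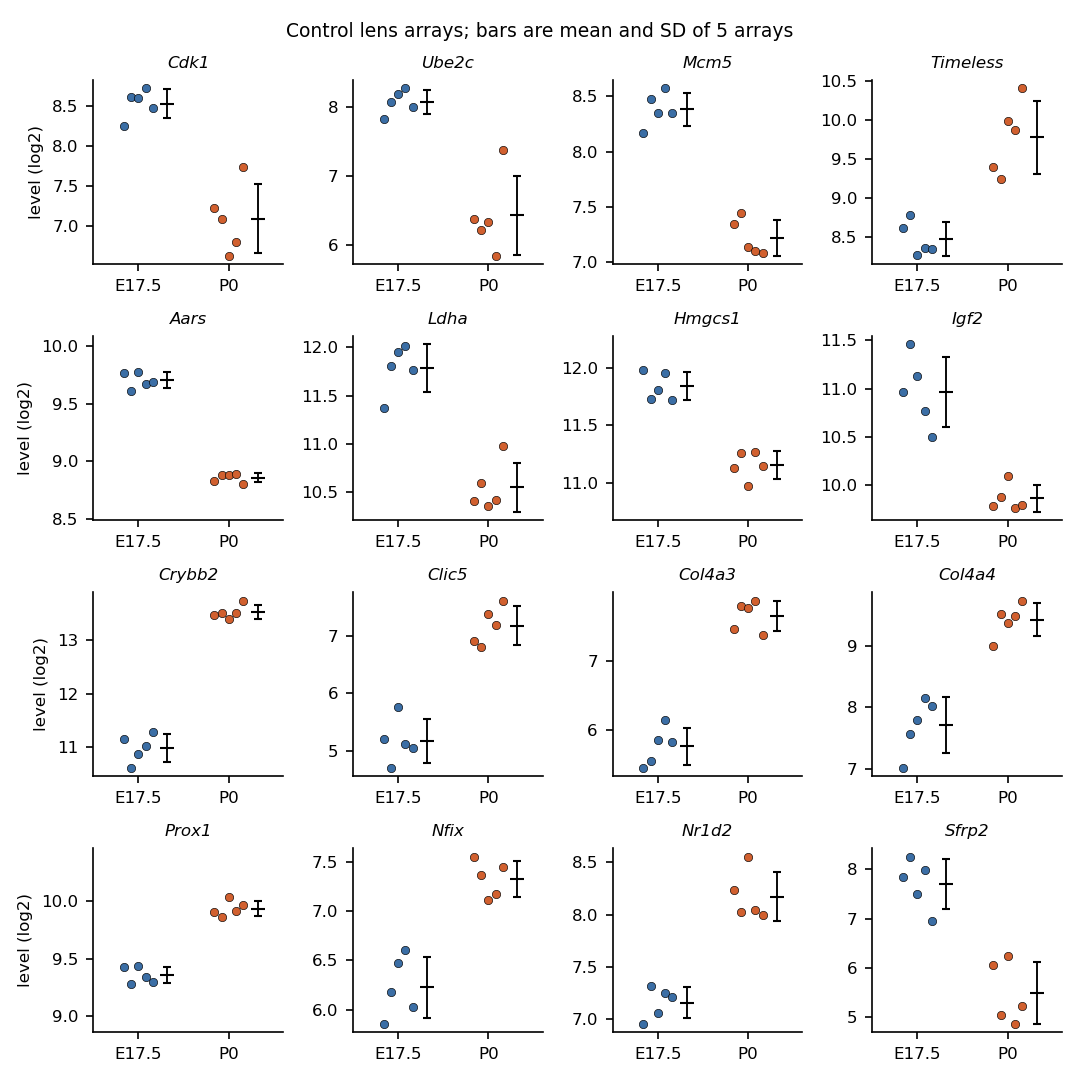
Levels of 16 genes in each control array (log2, as deposited), E17.5 left and P0 right in each panel, with the mean and SD of 5 arrays as bars. Each panel has its own scale. Cdk1, Ube2c, Mcm5, Aars, Ldha, Hmgcs1, Igf2 and Sfrp2 are lower at P0 and the other 8 higher, with no overlap in any panel.

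Among transcripts of capsule genes, those of 2 collagen IV chains were among the largest rises. Collagen protein was not measured. Of 30 tested genes of collagen IV, laminins and their makers 7 were higher and 4 lower. Over all genes tested 12.8% were higher and 25.5% lower. Col4a3 read 5.45, 5.55, 5.85, 6.14 and 5.82 at E17.5 and 7.47, 7.80, 7.77, 7.87 and 7.38 at P0. Its level rose 3.72-fold without overlap (adjusted p = 1.77e-05). Col4a4, whose chain assembles with it, read 7.02, 7.56, 7.80, 8.16 and 8.02 at E17.5 and 8.9999, 9.52, 9.37, 9.49 and 9.73 at P0, a 3.27-fold rise (adjusted p = 0.000158). All their other probe sets moved the same way, by 1.66 to 1.79. The remaining collagen IV chains moved little: Col4a1 read 0.05 ± 0.06, Col4a2 0.24 ± 0.08 (adjusted p = 0.0439, overlapping, and lost without any of P0 replicates 5, 6, 7 and 8 or E17.5 replicates 10, 11 and 12, at 0.19 to 0.25), Col4a5 -0.09 ± 0.06 and Col4a6 0.09 ± 0.05. The laminin chain Lama2 rose by 0.81 ± 0.15, and P4ha1 and Serpinh1, which modify and fold collagen, fell by 0.72 ± 0.13 and 0.51 ± 0.09. Of integrins and adhesion receptors 5 of 24 were higher and none lower, among them Cd44 (1.35 ± 0.14), Itga2 (0.47 ± 0.08) and Itgav (0.28 ± 0.05).

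Col4a3 and Col4a4 are known as a head-to-head pair, and the stretch between their starts is shown because both rose together. RefSeq places 71 bases between the listed start of Col4a4 and that of Col4a3. They are in capitals in the window chr1:82586825-82586920, on the strand of Col4a4 (minus), followed by the first 25 bases of that gene in lower case.
Col4a4: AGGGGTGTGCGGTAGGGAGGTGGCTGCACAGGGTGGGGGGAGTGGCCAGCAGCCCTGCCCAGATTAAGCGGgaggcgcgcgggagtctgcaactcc

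Signalling genes moved in both directions, where 12.8% of all genes tested were higher and 25.5% lower. In FGF signalling, the main fibre-inducing pathway, 4 of 24 were higher and 6 lower. The receptors Fgfr3 and Fgfr2 rose by 0.41 ± 0.07 and 0.23 ± 0.06 and the adaptor Grb2 fell by 0.46 ± 0.07. In PDGF, IGF and EGF signalling 3 of 20 were higher and 3 lower, with the insulin receptor substrates Irs1 and Irs2 up by 0.42 ± 0.06 and 0.48 ± 0.10. BMP and TGF-beta signalling had 9 of 35 higher, above the share over all genes, and 7 lower, with Smad1 at 0.40 ± 0.07. Notch signalling had 3 of 22 higher and 6 lower, and its targets Hes1 and Nrarp both fell by 0.67, with SE 0.12 and 0.13. Wnt signalling had 5 of 39 higher and 6 lower, with Wnt7b at 0.22 ± 0.04. Crabp2, a retinoic acid carrier, fell by 1.29 ± 0.14.

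Of 34 tested members of the fetal growth and imprinted list 12 were lower and 1 higher (median -0.13), and 21 did not pass, where 25.5% of all genes tested were lower. Igf2, the fetal insulin-like growth factor, read 10.96, 11.46, 11.14, 10.76 and 10.50 at E17.5 and 9.78, 9.87, 10.09, 9.75 and 9.79 at P0. The stages did not overlap (-1.11 ± 0.15, adjusted p = 0.000354). The growth factor Mdk fell by 1.02 ± 0.08, the imprinted growth inhibitor Grb10 by 1.02 ± 0.09 and the imprinted Mest by 0.87 ± 0.13.

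Of 19 tested members of the circadian clock list 9 were higher and none lower (median 0.10), where 12.8% of all genes tested were higher. In all 9 the stages did not overlap, where 7.96% of all genes tested were higher without overlap. The 9 include Nr1d1, which passed the level filter through the P0 arrays alone, and 8 others. Nr1d2, a clock repressor, read 6.95, 7.32, 7.06, 7.25 and 7.22 at E17.5 and 8.23, 8.03, 8.55, 8.04 and 7.996 at P0. It rose 2.02-fold (adjusted p = 0.000108). Its relative Nr1d1, which was above the array median in the P0 arrays only, rose by 0.39 ± 0.06, the repressors Per3 and Cry2 by 0.69 ± 0.11 and 0.57 ± 0.07, the activator Rora by 0.53 ± 0.09, Hlf by 0.48 ± 0.05 and Clock by 0.29 ± 0.08. Per1, Per2, Cry1, Dbp and Arntl lay between -0.22 and 0.10 and did not pass the test, except Per1 without P0 replicate 1 (-0.28, limma adjusted p = 0.0417). In the fit with the 18S level 1 of the 19 was called higher, while the median change was 0.26. The hour of dissection was not given. The E box CACGTG was present in 3 of 16 clock members with a window, against 11.8% of genes tested.

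**Figure D4:**
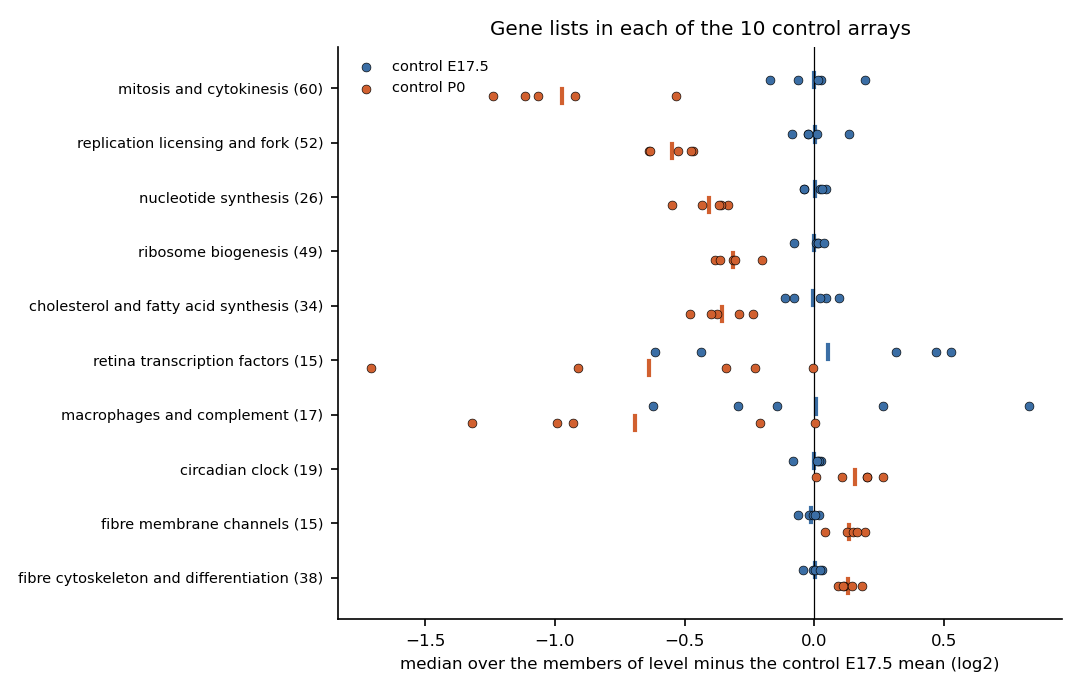
Median over the tested members of 10 gene lists in each control array, as level minus the control E17.5 mean (log2), with 1 point per array and a bar at the group mean. The 5 division and biosynthesis lists are lower in all P0 arrays than in any E17.5 array, while the retina and macrophage lists spread widely within each stage.

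Genes of other eye tissues varied between arrays. Where 25.5% of all genes tested were lower, 7 of 15 tested retina transcription factors were lower and none higher (median -0.51). Their median deviation was 0.32, 0.53, -0.61, 0.47 and -0.44 in E17.5 arrays 10, 11, 12, 13 and 15, and ranged from -1.71 in P0 array 7 to 0.00 in P0 array 1, so the stages overlapped. Without any of P0 replicates 6, 7 and 8 and E17.5 replicates 10, 11 and 13 the count of 7 was 3 or 4. Atoh7 read 8.89, 9.09, 7.83, 9.04 and 7.36 at E17.5 and 7.14, 5.89, 7.23, 5.70 and 5.82 at P0, following the same arrays. The other Atoh7 probe set changed by -0.60 only, from 6.74 to 6.14. Fgf15, also known from retinal progenitors, fell by 2.39 ± 0.51 with overlapping stages. The retina markers as a mean did not pass the exact permutation test (-0.460, adjusted p = 0.306), and the markers themselves differed. Crx was above the array median in all 10 control arrays, Lhx2, Six6 and Stmn2 in 9, Rax in 8, Otx2 in 7, Sncg in 6, Rlbp1 in 4, Nrl in 1 and Rcvrn in 0. With the retina marker level of each array in the fit, 57 of the 60 mitosis genes were called lower, and 39 of the 52 replication genes. The part of retinal RNA in the falls of Atoh7, Fgf15, Sox11 and Sfrp2 was not tested beyond that fit, in which their changes were -1.37, -1.48, -0.97 and -1.71.

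Of 17 macrophage and complement genes 5 were lower and none higher (median -0.77), where 25.5% of all genes tested were lower. In no member did the stages lie apart, as they did for 25.5% of all genes tested. The count rested on single arrays, with 10 lower without P0 replicate 5 and 1 or 2 without any of P0 replicates 6, 7 and 8 and E17.5 replicates 11 and 12. Csf1r, the receptor of the macrophage growth factor, fell by 1.17 ± 0.34 with overlap. The mean of the macrophage markers differed by -0.665, which did not pass the exact permutation test (adjusted p = 0.159). C1qa, C1qb and Csf1r were above the array median in all 10 control arrays, C1qc, Adgre1 and Lyve1 in 8, and Cd68 and Aif1 in 0. With the macrophage level in the fit, 2892 genes were called in all, and 54 mitosis, 37 replication and 35 ribosome biogenesis genes were called lower. Fibre cytoskeleton genes called higher dropped from 17 to 11 in that fit. In such whole-tissue samples fewer cells of a type and less RNA per cell cannot be told apart. Of 29 vessel genes 2 were higher and 3 lower, none of them without overlap, where 12.8% of all genes tested were higher and 25.5% lower. The 3 became 7 without P0 replicate 5 and 0 or 1 without any of P0 replicates 1, 6 and 8 and E17.5 replicates 11 and 12.

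Red-cell markers separated the stages as a mean, though not each by itself. The mean of the erythroid markers fell by 1.09 (exact permutation test, adjusted p = 0.0298). Of these markers Alas2, Hbb-y and Slc4a1 fell, the last from 5.63 to 4.28. Hba-a1 (3.19 and 3.29) and Hbb-bh1 (4.55 and 4.57) did not fall, and were above the array median in 0 control arrays. Of 12 tested erythroid genes 6 were lower and 1 higher, where 25.5% of all genes tested were lower. Alas2 read 7.29, 9.16, 8.57, 8.66 and 7.69 at E17.5 and 6.03, 6.86, 6.58, 6.96 and 6.02 at P0, with the lowest E17.5 array only just above the highest P0 array. The iron carrier Slc25a37 and the transferrin receptor Tfrc fell by 1.20 ± 0.16 and 0.65 ± 0.05. The embryonic globin Hbb-y, which was not tested because it failed the level filter, read 4.36, 7.87, 4.52, 4.71 and 4.54 at E17.5 and 3.54, 2.41, 2.69, 2.56 and 2.78 at P0. Its E17.5 replicate 11, which was also the highest for Alas2, stood far above the rest. Liver plasma protein markers rose by 0.965 as a mean (exact permutation test, adjusted p = 0.0298). This mean was 7.09 in P0 replicate 1 and 5.35 to 5.55 in the other P0 arrays, so replicate 1 weighed heavily in the rise. Alb read 4.77, 4.52, 4.15, 4.49 and 4.02 at E17.5 and 9.04, 6.21, 6.67, 6.49 and 5.81 at P0, so replicate 1 stood far above the other P0 arrays.

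The lenses without E2F1, E2F2 and E2F3 were compared between the same stages on arrays not shared with the controls. There 1612 of 11501 genes were called (14.0%), 600 higher (5.22%) and 1012 lower (8.80%), and the median spread within a group was larger, with SDs of 0.202 and 0.148 at E17.5 and P0 against 0.0947 and 0.101 in the controls. The number of calls rested on single arrays: it was 393 without P0 replicate 19 and 2578 without E17.5 replicate 28. Of 4335 genes called in controls and tested in the knockout, 3766 changed in the same direction there (86.9%), against 73.4% of all genes tested in both. Among them 954 were called in the same direction and 5 in the opposite one. The mitosis list had a median of -0.46 in the knockout with 25 of 60 called lower, and replication -0.26 with 6 of 52. Cdk1 changed by -0.75 ± 0.18 and Ube2c by -0.70 ± 0.15 there. The difference of their stage changes did not pass a test over all 20 arrays (-0.70 ± 0.27, adjusted p = 0.229, and -0.94 ± 0.29, adjusted p = 0.148).

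**Figure D5:**
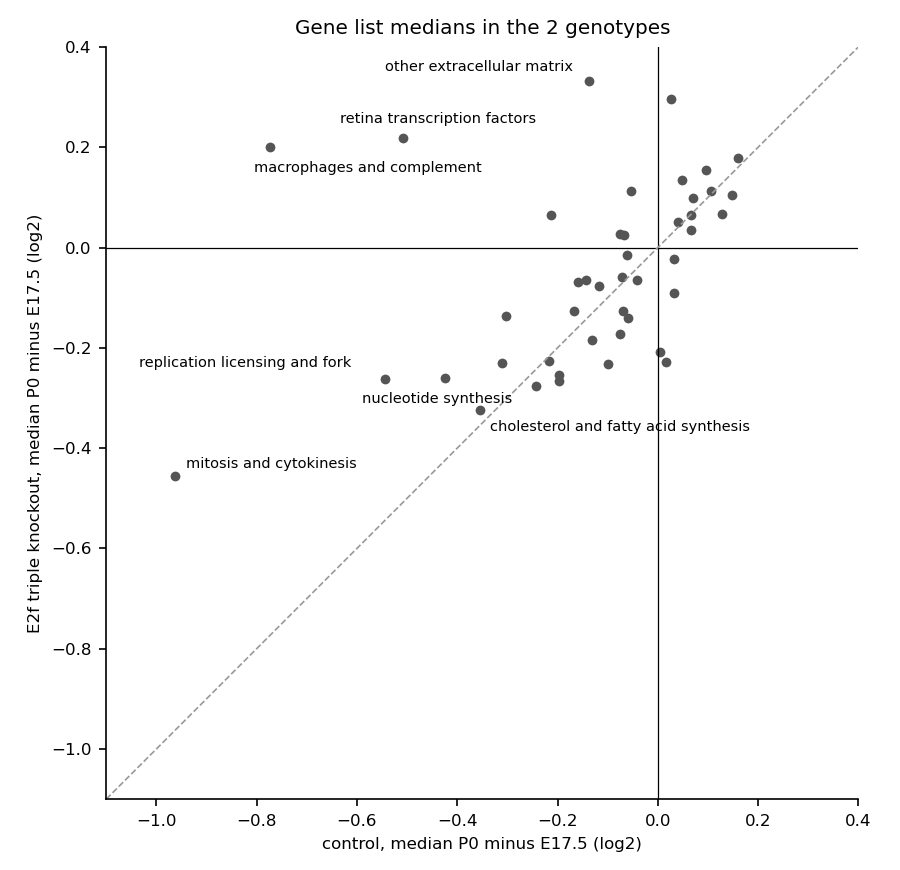
Median change from P0 minus E17.5 (log2) of 44 gene lists with at least 15 tested members in each genotype, controls on the horizontal axis and triple knockouts on the vertical axis, with a dashed line of equality. Both medians are below 0 in 22 lists and above 0 in 11, and the mitosis list lies at -0.96 in controls and -0.46 in knockouts.

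The stage change differed between genotypes for 21 of 11859 genes (0.177%). Col4a3 was among them: its change was 0.23 ± 0.25 in the knockout, and the difference was 1.66 ± 0.31 (adjusted p = 0.0355). Its neighbour Col4a4 changed by 0.64 ± 0.59 in the knockout, and its difference did not pass (1.07 ± 0.67, adjusted p = 0.446). Aars changed by -0.08 ± 0.14 in the knockout against -0.85 in controls (difference -0.77 ± 0.15, adjusted p = 0.0355). Rarb, a retinoic acid receptor, and Hlf differed by 0.96 ± 0.17 and 0.58 ± 0.11 (adjusted p = 0.0327 and 0.0355). Crybb2, by contrast, read 2.07 ± 0.44 in the knockout, and its difference did not pass (0.46 ± 0.49, adjusted p = 0.671). Leaving out single arrays brought the 21 calls to between 0 and 320, and weighting arrays by quality to 2585.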

How the data were processed

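Total RNA from both lenses of each mouse was hybridised to 1 Affymetrix array per sample. The log2 values the authors deposited, 1 per probe set, were used unchanged. No source used here names the background correction or normalization. Groups came from the sample titles. Of 45101 probe sets, 34945 named 1 gene, 932 several and 9160 none in the platform annotation, and 34741 symbols were updated by Entrez identifier. Each of 18193 genes was represented by the probe set with the highest mean over 20 arrays, and genes above the array median in at least 5 of 10 control arrays (11453) were tested. The 10 control arrays were fitted alone in R 4.3.3 with lmFit and eBayes of limma 3.58.1, with 8 residual and 3.11 prior degrees of freedom, and p-values were adjusted by Benjamini-Hochberg over all genes tested. Changes are P0 minus E17.5 with SE. The knockout arrays were fitted alone in the same way, and the difference of stage changes over all 20 arrays. Array measures were compared with a two-sided exact permutation test, whose smallest p is 0.00794. Tested on simulated data for the control comparison, the fit recovered 84% of 100 genes changed by 0.5 and 100% of 100 changed by 1, with 6.60% false calls.

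The members and gene lists were chosen with earlier results of these data known, and lists are described by counts and medians only. Genes were named by rule: E2f1 to E2f3, the 15 largest rises and falls without overlap, both crystallin lists, up to 4 risen and 4 fallen called members of every other list by smallest adjusted p (up to 2 members where none was called), and the 5 largest differences of stage change in each direction. Of 297 genes so named the text gives a part, and 21 named genes outside the rule were chosen after their values were seen, as was the untested Hbb-y. Promoters came from RefSeq (GRCm38.p6). The alternatives tried were other scaling, filters, probe set choices, priors and array weights, each array left out, Xist as a covariate, and, chosen after seeing the data, the retina, macrophage or 18S level of each array as a covariate.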

Additional observations from a re-analysis of the deposited data

Results flagged for a closer look

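In 22 of 300 gene and group pairs, 1 of 5 arrays stood apart from the rest by Dixon's criterion at 95%, which chance alone meets in about 1 in 20 groups. P0 replicate 8 was the highest of its group for the mitotic genes Bub1 (6.29) and Kif2c (6.10), and the lowest for Ppl (8.19) and Itgav (10.46). P0 replicate 1 was the lowest for Cdkn1c (12.34), Slc2a1 (11.56), Foxe3 (7.84), Col4a1 (13.08) and Wnt7b (10.76), and the highest for Alb (9.04). Among the other P0 arrays, replicate 7 was the highest for Pttg1 (9.92) and replicate 6 for Iars (10.45). E17.5 replicate 10 was the lowest for Elavl1 (9.66), Foxe3 (8.21), Mest (9.98) and Hlf (6.60). E17.5 replicate 11 was the lowest for Cryaa (14.85) and Wipi1 (9.10), replicate 13 the highest for Cdkn2d (8.42) and the lowest for Irs1 (11.75), replicate 12 the highest for Pttg1 (10.29), and replicate 15 the lowest for Paics (12.70).

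The stage change differed between control and knockout lenses, by the limma interaction over 20 arrays, for 8 of the named genes. The control change minus the knockout change was 1.66 for Col4a3, 1.52 for Abi3bp, 1.17 for Tafa4, 0.96 for Rarb and 0.58 for Hlf. It was -0.77 for Aars, -1.04 for Ecrg4 and -1.13 for Ociad2.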

How the results depend on the processing

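No paired analysis was possible because the control groups share no replicate numbers. Of 129 named genes called, 98 were tested under all 21 alternatives other than the covariates of retina, macrophages and 18S, and 83 of them kept the call in each. The other 31 were tested under fewer, and 28 kept it wherever tested. The 4388 control calls (1464 higher, 2924 lower) became 2019 (572 and 1447) with all 20 arrays in the fit. Counted over every probe set they became 6991 (2664 higher). They became 2892 (811 higher) with the macrophage level as a covariate, and 496 (92 and 404) with the 18S level, which did not overlap between stages. Leaving out single control arrays gave 3636 to 4390. Fibre cytoskeleton genes called higher went from 17 to 6, 11 and 2 with all 20 arrays, the macrophage and the 18S covariate. With the 18S covariate mitosis genes called lower went from 59 to 5, replication 40 to 14, ribosome biogenesis 40 to 7, cholesterol 24 to 5, and clock genes called higher 9 to 1. With it the medians of these lists read -1.01 for mitosis, -0.54 for replication, -0.35 for ribosome biogenesis, -0.55 for cholesterol and 0.26 for clock. Other medians went from -0.16 to -0.09 for the proteasome, -0.51 to -0.01 for retina factors and -0.77 to -2.17 for macrophages. Standard errors grew, for Cdk1 from 0.18 to 0.44. The part of 18S in these changes cannot be told apart from stage in this fit. Mitosis genes called lower numbered 27 under the stricter filter, which tested fewer genes. Of the named genes called, 79 lost the call with the 18S covariate, 12 with the macrophage and 3 with the retina covariate. Single arrays left out gave an 18S difference of 0.821 to 0.989, and it was 0.825 without control P0 replicate 5 (exact permutation test, adjusted p = 0.0595). In the knockout, genes called higher numbered 331 after median centring. With no filter 2644 were called there, 1499 higher. Leaving out single arrays gave 393 to 2578 calls, 99 to 944 higher and 294 to 1634 lower. The 21 differences of stage change became 2585 with array weights and 0 to 320 with single arrays left out. The number of arrays limits precision, and crystallins near the top of the scale limit any rise seen.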

Other observations

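Stress and hormone lists moved in both directions. Of 32 tested p53 targets 8 were higher and 11 lower, of 32 apoptosis genes 9 and 11, and of 34 heat shock chaperones 8 and 10. Of 21 glucocorticoid response genes 6 were higher and 3 lower, and of 17 retinoid and thyroid hormone genes 5 and 2. Of 22 immediate early genes 3 were higher and 2 lower. Over all genes tested 12.8% were higher and 25.5% lower.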
